A study of Homo sapiens with 6 samples.

Results

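The main cluster of human replication-dependent histone genes lies on the short arm of chromosome 6. It was taken here as every END-seq peak whose summit fell at chr6:26000000-28000000 (hg19) in any of the 8 deposited peak lists, which gave 3232 peaks of 4267178 in all. The interval held 50 protein-coding histone genes, and 546 of its peaks lay in their windows, which cover each annotated gene and 1 kb on either side. Another 25 peaks lay only in windows of 9 histone pseudogenes, and the other 2661 made up the rest of the interval.

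END-seq ligates an adapter to free DNA ends in agarose-embedded cells and so maps double-strand breaks (DSBs), with reverse-strand peaks to the left of a break and forward-strand peaks to its right. HCT116, a human colorectal carcinoma cell line, was treated with camptothecin (CPT), which traps DNA topoisomerase I on DNA as a cleavage complex. Cells received 10 µM CPT for 10 min or for 20 min, with 2 biological replicates each, and 2 untreated libraries served as the control of peak calling. The sample titles write 10 and 20 as µM concentrations, whereas the treatment protocol gives 10 µM for both and 10 or 20 min as times, and the latter was followed. Peak lists of untreated cells were not analysed here, so every value below describes peaks called in treated cells and none is a change from untreated cells. The lists hold 286491 to 826744 peaks each, and 236 to 599 of them fell in the interval. The expected summit height of a list, a relative measure of depth, ranged from 0.727 to 1.44, and replicate 2 at 20 min had the shortest lists.

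Replication-dependent histone genes are short and mostly intronless, and they are transcribed at high rates in S phase, when new DNA must be packaged into nucleosomes. The core histones H2A, H2B, H3 and H4 form the nucleosome, and the linker histone H1 binds the DNA between nucleosomes. Their mRNAs end in a conserved stem-loop in place of a poly(A) tail. Many H2A and H2B genes stand head to head and share a promoter region.

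At H2AC15, H2AC7 and H2BC5 the best peak of 1 strand had its summit inside the coding sequence in all 4 libraries. The stretches below lie under those summits, of the best forward peak of H2AC15 and of H2AC7 and of the best reverse peak of H2BC5, and were read from GRCh37 in the direction of the gene, with the bases between the outermost summits in capitals. H2AC15 and H2AC7 are H2A genes on the minus strand, and H2BC5 is an H2B gene on the plus strand. These genes are examples, and the cluster was not searched for others. At H2AC17 the best forward summits also lay inside the gene in all 4 libraries. They were 258 and 213 bp from its 5′ end at 10 min and 180 and 178 bp at 20 min.
H2AC15, chr6:27805833-27805960, minus strand: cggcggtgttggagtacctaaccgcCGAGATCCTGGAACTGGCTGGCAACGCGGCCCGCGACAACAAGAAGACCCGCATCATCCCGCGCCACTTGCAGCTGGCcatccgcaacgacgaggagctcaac
H2AC7, chr6:26199269-26199434, minus strand: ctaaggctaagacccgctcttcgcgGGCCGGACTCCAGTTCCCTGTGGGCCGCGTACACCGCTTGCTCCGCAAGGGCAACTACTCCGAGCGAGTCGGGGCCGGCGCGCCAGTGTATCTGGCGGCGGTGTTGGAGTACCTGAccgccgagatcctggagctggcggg
H2BC5, chr6:26158663-26158762, plus strand: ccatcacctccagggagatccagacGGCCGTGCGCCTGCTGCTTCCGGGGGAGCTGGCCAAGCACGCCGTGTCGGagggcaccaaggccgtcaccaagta

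The 2 H2A genes without a summit in any list, H2AC8 and H2AC16, are shown for contrast over the same positions of the coding sequence as the H2AC15 stretch, with the bases that differ from H2AC15 in capitals.
H2AC8, chr6:26217360-26217487, plus strand: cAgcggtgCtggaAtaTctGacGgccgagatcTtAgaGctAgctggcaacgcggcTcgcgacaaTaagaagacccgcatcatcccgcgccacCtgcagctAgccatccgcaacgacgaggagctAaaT
H2AC16, chr6:27833290-27833417, plus strand: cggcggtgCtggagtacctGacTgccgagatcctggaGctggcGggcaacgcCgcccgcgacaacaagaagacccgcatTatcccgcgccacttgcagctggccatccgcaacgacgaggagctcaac
H2AC16 differed from H2AC15 at 7 of the 128 positions and H2AC8 at 16. Over the whole coding sequence of 390 bases, identity with H2AC15 was 91.3% for H2AC16 and 86.4% for H2AC8.

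At the other end of the genes, the 16 bases most often found within 100 bases of the 3′ end of the canonical transcripts of the cluster were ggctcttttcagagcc, the letters of the histone stem-loop. They occurred on the gene's strand with at most 2 mismatches at 46 of 49 histone genes with a canonical transcript (93.9%), and 28 of these matches were exact. The 16 bases were picked from these same genes, so a high share among them was fixed in part by that choice. Among 997 other protein-coding genes of chromosome 6 the share was 0.301%, or 3 genes, namely the testis-specific histone genes H2AC1 and H2BC1, which lie outside the interval, and ENSG00000282988, which overlaps H2AC7.

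Peaks were denser in the histone windows than in the rest of the interval in each of the 4 libraries. Windows of the 9 genes with annotated extents of 2 kb or more span 131.5 kb and held 0.612 ± 0.154 summits per kb. The extent of H2BC4 also holds all of HFE, which is not a histone gene. Windows of the 41 shorter genes, which partly overlap them, span 89 kb and held 0.812 ± 0.115 (SD, n = 4 libraries each). With canonical transcripts, chosen after the data were seen, the mean ratio to the rest was 2.34. At 10 min the histone windows held 0.792 summits per kb in replicate 1 and 0.638 in replicate 2, over both strands. At 20 min they held 0.715 in replicate 1 and 0.475 in replicate 2. The rest of the interval held 0.478, 0.361, 0.444 and 0.210 summits per kb in the same order, so the lowest histone value was close to the highest value elsewhere, and the groups separate within a library rather than across libraries. The ratio of histone windows to the rest was 1.66 (95% exact interval 1.39 to 1.96) and 1.77 (1.46 to 2.14) at 10 min. At 20 min it was 1.61 (1.34 to 1.92) and 2.27 (1.80 to 2.83). The mean log2 ratio was 0.85 ± 0.22 (SD, n = 4 libraries), a ratio of 1.81, and its two-sided exact sign-flip permutation p of 0.125 is the smallest that 4 libraries allow. The intervals cover counting error only, since neighbouring peaks are not independent and duplicate reads were kept.

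Against chromosome 6 outside the interval, the ratios of the histone windows were 1.66 and 1.74 at 10 min and 1.79 and 2.44 at 20 min. Their mean log2 value was 0.92 ± 0.25 (SD, n = 4), with the same exact permutation p of 0.125. The rest of the interval lay close to the chromosome, with ratios of 1.00 and 0.986 at 10 min and 1.11 and 1.08 at 20 min. That mean log2 ratio was 0.06 ± 0.08 (SD, n = 4; exact permutation p = 0.375). The histone windows were also richer in G and C, at 43.3% against 40.9% in the rest and 39.6% outside the interval. Within 1 kb bins of 38.8% to 48.4% GC the ratio to the rest was 1.48, and the part of base composition in the difference was not otherwise tested.

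**Figure D1:**
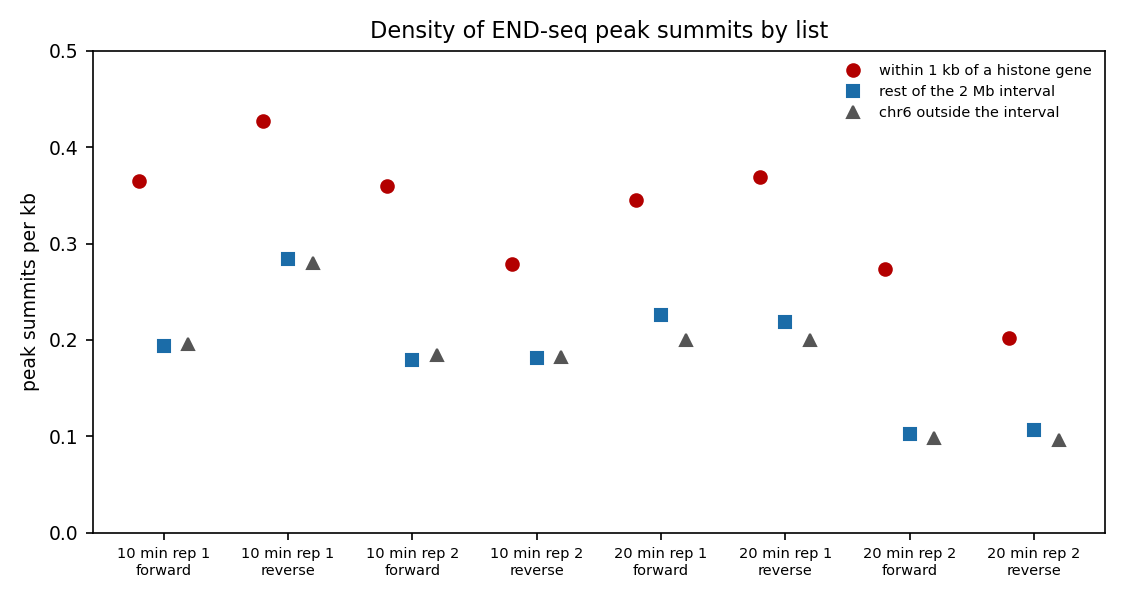
Peak summits per kb (vertical axis) in each of the 8 lists (horizontal axis). Circles mark the windows of 1 kb around the annotated extents of the 50 histone genes. Squares mark the rest of the interval and triangles chromosome 6 outside it. The circle is highest in every list, while squares and triangles lie close together.

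Both strands showed the difference. In the forward lists the ratio of histone windows to the rest was 1.88, 2.01, 1.53 and 2.67 in the order of the libraries above, and in the reverse lists it was 1.51, 1.54, 1.69 and 1.88. The 8 exact binomial tests gave Benjamini-Hochberg adjusted p values between 3.29e-08 and 0.00424, for counting error only. The forward ratio exceeded the reverse one in 3 of 4 libraries. The strands were compared relative to chromosome 6 outside the interval, against which the forward ratios were 1.86, 1.96, 1.73 and 2.77 and the reverse ratios 1.53, 1.53, 1.85 and 2.10. The log2 of these forward over these reverse ratios was 0.28, 0.35, −0.10 and 0.40, with a mean of 0.24 ± 0.23 (SD, n = 4; exact permutation p = 0.25), a difference that does not exceed the spread between libraries by this test.

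Between 10 and 20 min no difference of the density ratio was resolved. The log2 ratio of histone windows to the rest was 0.16 higher at 20 min, with an exact permutation p of 1 where 2 against 2 libraries allow none below 0.333. It was 0.40 higher without replicate 1 at 20 min and −0.09 without replicate 2 at 20 min. The direction of this ratio thus rests on a single library. Against chromosome 6 outside the interval the log2 ratio was 0.29 higher at 20 min (exact permutation p = 0.333, the smallest possible). The increase was 0.10 between the libraries numbered 1 and 0.49 between those numbered 2. The rest of the interval against the chromosome was also higher at 20 min, by 0.14, with 0.15 and 0.13 within the 2 numbers.

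Stronger peaks were more concentrated at the histone genes. The authors' −log10 q-value measures how far a summit rises above the uniform expected height of its list, and it grows with depth, so peaks of 10 or more are called strong within a library only. Of all summits in histone windows, 64 and 24 were strong at 10 min and 44 and 27 at 20 min. The rest of the interval, with 1783 kb against 208.4 kb, held 155, 19, 92 and 13. The ratio of densities among strong peaks was thus 3.53 (95% exact interval 2.60 to 4.76), 10.8 (5.67 to 20.9), 4.09 (2.79 to 5.92) and 17.8 (8.86 to 37.5). Against chromosome 6 outside the interval it was 4.48, 16.7, 5.14 and 27.7. At 20 min in replicate 2, the histone windows held 0.303% of all summits of chromosome 6 and 3.31% of the strong ones on 0.125% of its length.

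**Figure D2:**
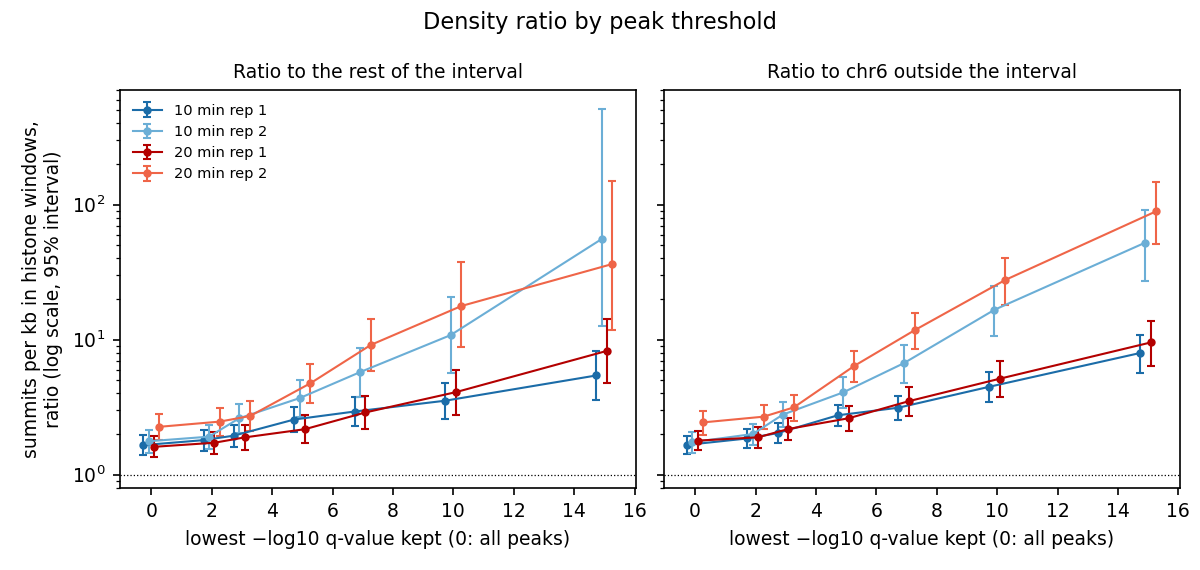
Ratio of summit density in histone windows to the rest of the interval (left) and to chromosome 6 outside it (right), on a log axis with 95% exact intervals, against the lowest −log10 q-value kept, for each of the 4 libraries. In every library the ratio is higher at 10 than for all peaks, and the replicate 2 libraries, which have fewer strong peaks, rise most.

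Peaks near histone genes were also wider. They covered 8.59% to 14.0% of the bases of the histone windows per list, against 2.42% to 7.15% of the rest. Median widths were 225 to 306 bp in the histone windows and 187 to 232.5 bp in the rest. The recovered summit height, a whole number of piled-up fragments, reached 130 in the forward list of 10 min replicate 1, at H2AC15.

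By gene, 48 of 50 histone genes had a summit within their window in at least 1 list (96%), against 97.1% of 20098 protein-coding genes over their own annotated extents and 1 kb on either side. A summit in all 4 libraries was found at 36 (72%), against 86.9%, and one in all 8 lists at 18 (36%), against 67.7%. A strong peak was present in all 4 libraries at 19 histone genes (38%), against 17.1%, and in at least 1 library at 37 (74%), against 86.8%. Only the share with a strong peak in all 4 libraries was thus above its background. These windows grow with the gene, and the median extent was 495.5 bp for the histone genes and 27256.5 bp for all genes. None of the 17 other protein-coding genes of the interval had a strong peak in all 4 libraries, although 15 of them had a summit in each.

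The calls were compared with all protein-coding genes over windows of 1 kb on either side of the 5′ end. A summit in each library was found at 34 of 50 histone genes (68%), against a background of 20% of 20098 genes. A DSB site is a reverse peak whose closest forward peak overlaps it, in either order, or lies less than 150 bp to its right. Such a site was replicated at 10 min at 12 histone genes (24%), against 1.31% of all genes. At 20 min it was replicated at 17 (34%), against 1.81%, and 11 genes had one at both times. A strong peak in both replicates was found at 18 histone genes (36%) at 10 min, against 2.15%, and at 23 (46%) at 20 min, against 2.77%, with 17 genes at both times. The shares among histone genes were above the background under each of these 5 rules. Other protein-coding genes of chromosome 6 lay below it, with 147, 8, 10, 14 and 12 of 998 called in the order given.

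Head-to-head genes share peaks, so these genes are not independent. The 5′-end windows of 30 genes overlapped in 14 shared windows, which left 34 separate windows. Of these, 22 held a summit in each library (64.7%), 7 and 10 a replicated DSB site at 10 and 20 min (20.6% and 29.4%), and 11 and 15 a strong peak in both replicates (32.4% and 44.1%).

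**Figure D3:**
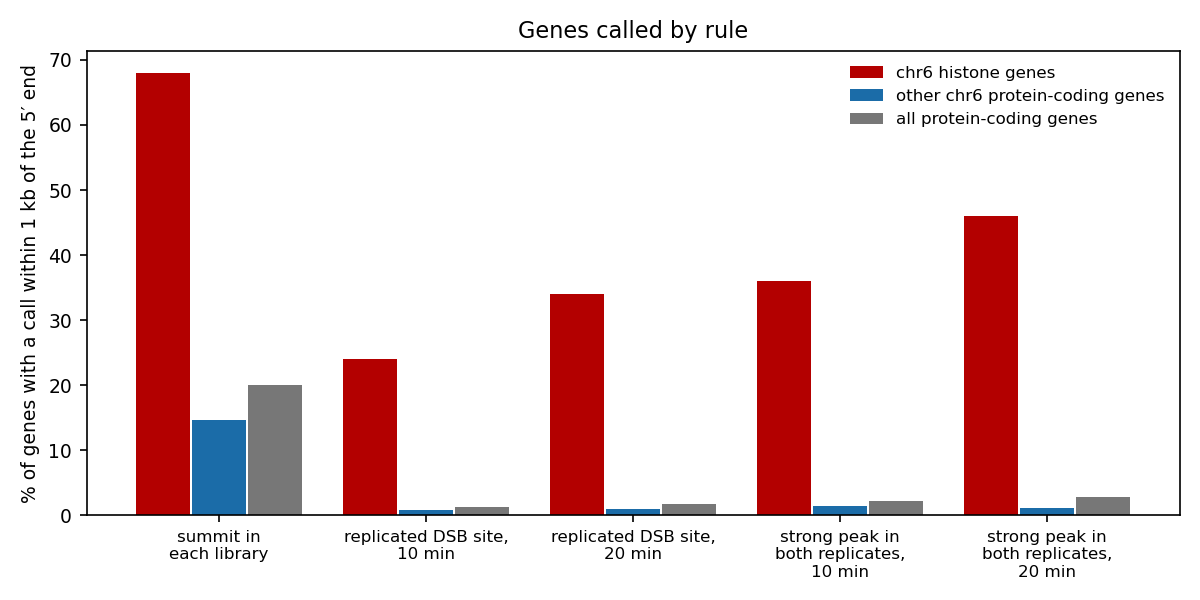
Share of genes (vertical axis, percent) with a call within 1 kb of the 5′ end under 5 rules (horizontal axis), for the histone genes of the cluster, the other protein-coding genes of chromosome 6 and all 20098 protein-coding genes. The histone bars range from 24% to 68%, and the bars of all genes from 1.31% to 20%.

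Averaged over libraries, densities of the histone families overlapped within their spread, apart from H2A and H1. That spread includes list length, which all families of a library share. Within each library the H2A and H3 windows were denser than those of H2B and H1. This difference was not tested, and windows of neighbouring genes of different families overlap. The windows of the 11 H2A genes held 0.937 ± 0.217 summits per kb (SD, n = 4 libraries), those of the 10 H3 genes 0.771 ± 0.164 and those of the 11 H4 genes 0.744 ± 0.158. The 12 H2B genes held 0.637 ± 0.158 over windows that include several long annotated transcripts, and the 6 H1 genes 0.573 ± 0.035. A strong peak in all 4 libraries was found at 7 of 12 H2B, 5 of 11 H2A, 4 of 10 H3, 2 of 6 H1 and 1 of 11 H4 genes. The share of all protein-coding genes was 17.1%, and the H4 share was below it. These counts use annotated extents, and at H2BC6 the best summit at 20 min in replicate 1 lay 6927 bp downstream of the 5′ end. Neighbouring genes of different families share peaks, so the counts of families are not independent. The H1 genes were split, since H1-2 and H1-4 had strong peaks in each library and H1-1, H1-3, H1-5 and H1-6 had none in any.

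The genes form 3 groups along the interval. The first group, of 29 genes near 26 Mb, held 0.629 ± 0.149 summits per kb, the second, of 5 genes, 0.804 ± 0.181 and the third, of 16 genes, 0.689 ± 0.082 (SD, n = 4 libraries each). The spacer between the first and second groups held 0.346 ± 0.129 and that between the second and the third 0.405 ± 0.112. The spreads of the 3 gene groups overlapped, and so did those of the spacers, but they include list length, which all sets of a library share. Within each library the second group was the densest, at 0.984, 0.722, 0.919 and 0.591 against 0.781, 0.610, 0.692 and 0.432 in the first. It rests on 9 to 15 summits per library. The second spacer exceeded the first in each library. These differences were not tested. Windows of histone pseudogenes held 0.706 ± 0.170 summits per kb on 8.85 kb, from only 5 to 8 summits per library.

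**Figure D4:**
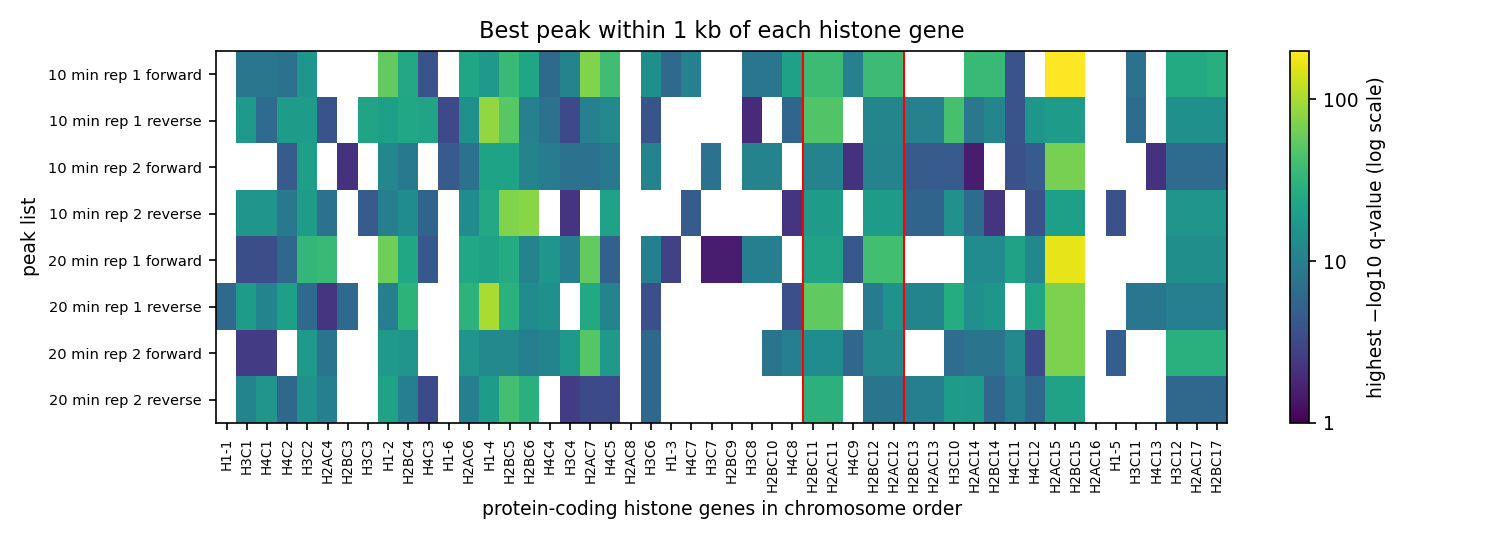
Highest −log10 q-value (colour, log scale) of any summit within 1 kb of the annotated extent of each of the 50 histone genes. Genes run along the horizontal axis in chromosome order and the 8 lists along the vertical axis. White marks no summit, red lines separate the 3 groups of genes, and neighbouring genes can share a peak. H2AC15 and H2BC15 hold the highest forward values, and H2AC8 and H2AC16 are white throughout.

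The head-to-head pair H2AC15 and H2BC15 ranked first. The forward peak inside H2AC15 had a −log10 q-value of 197 and 66.9 at 10 min and of 164 and 70.5 at 20 min. Its summit lay 240, 277, 218 and 295 bp downstream of the 5′ end of H2AC15 in the same order, within the capitals of the H2AC15 stretch printed above. The summits thus fell within 78 bp of each other, while their heights were 130, 49, 109 and 53. The best reverse peak of the H2AC15 window had values of 18.6, 20.0, 69.7 and 21.3 and changed place, lying 426 and 365 bp upstream in the replicate 1 libraries and 648 and 627 bp downstream in the replicate 2 libraries.

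The pair H2AC11 and H2BC11, on the other hand, led with reverse peaks. Their best values were 47.1 and 18.6 at 10 min and 54.9 and 30.3 at 20 min, with summits 235, 447, 386 and 396 bp inside H2AC11. Its forward peaks reached 37.8, 10.7, 21.0 and 13.2 at scattered places.

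H1-4, a linker histone gene, stood next to H2BC5. The best reverse peak of H1-4 had values of 84.0, 24.5, 101 and 18.5, and its summits ranged from 157 bp upstream to 531 bp downstream of the 5′ end. The reverse peak of H2BC5 had 50.1, 72.6, 29.2 and 41.4, and its summits lay 387, 379, 338 and 352 bp downstream, within the capitals of the stretch printed above. Replicate 2 exceeded replicate 1 at both times for H2BC5, and the opposite held for H1-4, although the 2 genes are neighbours.

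H1-2, a linker histone gene on the minus strand, had forward peaks of 55.8, 11.8, 62.5 and 17.1 and reverse peaks of 19.8, 9.57, 9.91 and 21.3, so the reverse peak was the higher one only at 20 min in replicate 2. H3C10, an H3 gene, led with reverse peaks of 42.6, 14.5, 26.5 and 18.5. The head-to-head pair H2AC6 and H2BC4 shared its best peak in all libraries but 10 min replicate 1, with H2AC6 at 23.2, 13.2, 30.6 and 15.8 and H2BC4 at 24.4 in that library. The H2BC4 value of 24.4 came from a summit 24014 bp downstream of its 5′ end, inside its annotated extent of 37610 bp. The H2AC6 value of 23.2 came from a summit 2068 bp downstream of its 5′ end, inside its annotated extent of 14972 bp. H2AC7, ranked lower because of 1 library, had forward values of 73.3, 7.39, 56.0 and 49.6, with summits 227, 112, 222 and 168 bp inside the gene.

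At the lower end, 14 genes lacked a summit in at least 1 library and tied for the last rank. H2AC8 and H2AC16 had none in any list. H1-1 and H2BC9 had 1 each, both at 20 min in replicate 1, with −log10 q-values of 6.12 and 1.51. H1-6, a linker histone gene known for its expression in testis, had a reverse peak of 3.25 and a forward peak of 4.57 at 10 min and none at 20 min. With windows of 2 kb on either side, H2AC8 and H2AC16 each had a summit in 2 lists. A missing peak states only that no summit passed the authors' threshold at this depth.

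Exact copies within the interval bear on some of these values. Stretches of 150 bases of H2AC13 and H2AC14, and of H4C11 and H4C12, recurred elsewhere in the interval, so that reads of these 4 genes could be lost to the authors' mapping quality filter. None of the 10 leading genes held such a stretch. Copies outside the interval and stretches that differ at some bases were not searched, so mapping losses at other genes were not tested.

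Along the genes, the place of the peaks depended on the annotation. Over the annotated extents, of which 9 reach 2 kb or more and 1 reaches 37610 bp, bodies and the 1 kb upstream were about equally dense, with a mean log2 ratio of −0.06 ± 0.32 (SD, n = 4; exact permutation p = 0.875). H4C2 has no canonical transcript, and its annotated extent of 357 bp was used in place of one. Over the canonical transcripts, whose median length is 486 bp and longest 797 bp, bodies held 35, 28, 36 and 29 summits on 25.1 kb in the order of the libraries. The upstream windows held 29, 34, 24 and 26 on 42.6 kb, and the downstream windows held 50, 41, 42 and 28 on 49.5 kb. Per kb the ratio of bodies to upstream was 2.05, 1.40, 2.55 and 1.90. Bodies exceeded upstream in 4 of 4 libraries, with a mean log2 ratio of 0.95 ± 0.36 (SD, n = 4), a ratio of 1.93, and an exact permutation p of 0.125, the smallest possible. This alternative was chosen after the data were seen.

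Among strong peaks alone the canonical bodies held 21, 9, 23 and 15 summits on 25.1 kb, and the upstream windows 7, 10, 6 and 8 on 42.6 kb. The ratio of densities was 5.10, 1.53, 6.52 and 3.19, lowest in replicate 2 at 10 min, and the mean log2 ratio was 1.84 ± 0.92 (SD, n = 4; exact permutation p = 0.125).

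**Figure D5:**
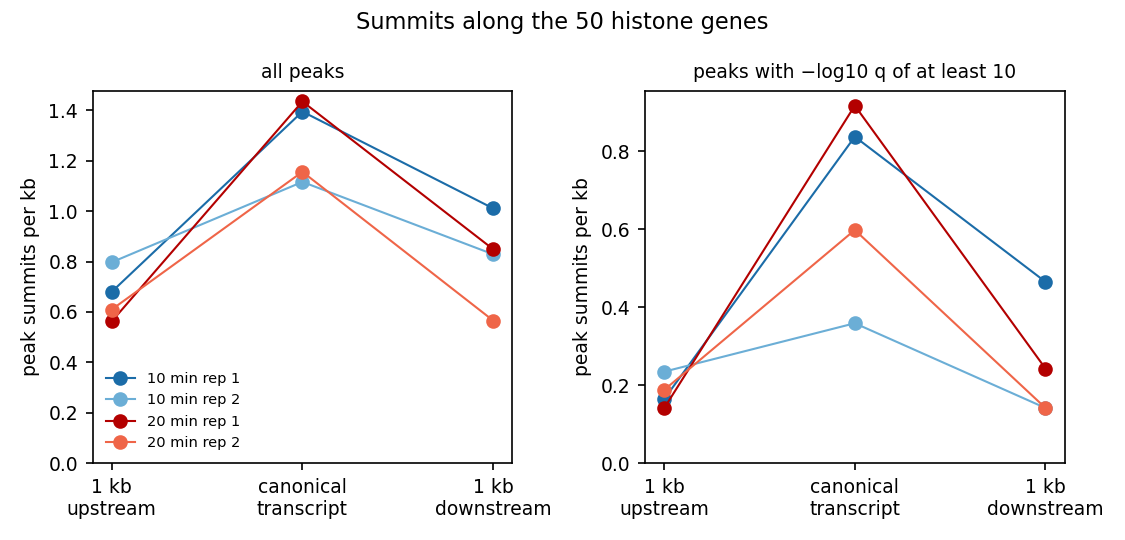
Summits per kb (vertical axis) in the 1 kb upstream, the canonical transcript (for H4C2, the annotated extent) and the 1 kb downstream of the 50 histone genes, for all peaks (left) and strong peaks (right), with a line for each of the 4 libraries. The transcript is the densest of the 3 places in each library in both panels.

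The strand of peaks within the first kb of the genes was then read relative to the direction of the gene, since a peak can represent the DNA on the 5′ or on the 3′ side of a break. Among strong peaks, 20 against 14, 11 against 6, 22 against 11 and 14 against 9 were of the 5′ side, or 58.8%, 64.7%, 66.7% and 60.9%. Each exact 95% interval included equal shares. At other protein-coding genes the shares were 60.9%, 70.8%, 68.3% and 73.7%, within the intervals of the histone genes. Strong peaks per gene differed more, at 0.68, 0.34, 0.66 and 0.46 for histone genes against 0.158, 0.0232, 0.177 and 0.0297 for the others. Among all peaks the 5′ side held 46.8% to 54.5% at histone genes. At other protein-coding genes it held 55.4%, 56.7%, 57.6% and 62.0%, above the histone share in each library. These shares of other genes lay within the exact 95% intervals of the histone genes, and the difference was not otherwise tested.

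Ratios for DSB sites exceeded those for all single peaks. A site needs peaks of both strands close together, so its ratio is not independent of peak density and width. The number of sites expected from density was not computed. The histone windows held 34 and 23 sites at 10 min and 23 and 22 at 20 min, and per Mb these were 5.34-fold (95% exact interval 3.69 to 7.47), 6.14-fold (3.89 to 9.23), 4.66-fold (2.95 to 7.002) and 19.0-fold (11.8 to 28.9) the values of chromosome 6 outside the interval. The highest ratio belonged to the library with the fewest sites, since chromosome 6 outside the interval held 5053, 2973, 3918 and 920. The corresponding ratios of strong single peaks, 4.48, 16.7, 5.14 and 27.7, were above those of sites except at 10 min in replicate 1. Of 13 clusters of replicated sites in the interval, 11 lay in histone windows, which cover 208.4 kb of its 2000 kb.

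Clusters were called persistent when replicated at both times, transient at 10 min only and late at 20 min only. All 6 persistent clusters of the interval lay in histone windows, or 28.8 per Mb. Outside the interval chromosome 6 had 31, or 0.187 per Mb. They covered H1-2 (chr6:26055149-26057193), H2AC6 and H2BC4 (chr6:26123198-26126704), H1-4 and H2BC5 (chr6:26155870-26159390), H2AC11 and H2BC11 (chr6:27100692-27101795), H2AC12 and H2BC12 (chr6:27114332-27115586), and H2AC15 and H2BC15 (chr6:27804762-27806939). Of the 5 late clusters, 4 were at H3C1 and H4C1, at H2AC7, at H4C12, and at H2AC17, H2BC17 and H3C12. The transient cluster of the histone windows was at H3C2, where strong peaks were nonetheless present in all 4 libraries. The classes reflect which lists hold a peak, without the test against control reads that the study applied.

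The order of neighbouring peaks on opposite strands, counted over all peaks that did not overlap and lay less than 150 bp apart, did not depart detectably from equal numbers in the interval. Pairs in the order reverse then forward, as on either side of a break, numbered 27, 22, 21 and 7 per library, and those in the opposite order 27, 12, 12 and 5. The exact binomial p values were 1, 0.121, 0.163 and 0.774. Among peaks with a −log10 q-value of at least 3, replicate 1 at 20 min had 15 against 5 (exact binomial p = 0.0414, unadjusted), the lowest p of the 4 libraries. Outside the interval the ratios of the 2 orders were 0.979, 1.08, 1.04 and 1.20.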

How the data were processed

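Per the study's methods, adapters were removed by Trim Galore 0.6.5, Bowtie2 2.5.0 placed the reads on hg19, and SAMtools 1.16.1 kept pairs of mapping quality 30 or more with their duplicates. Peak calls by the authors came from MACS2 2.2.7.1, for each library and strand at a q-value threshold of 0.05, with the control as input. Local background was switched off (--nolambda), so summits were measured against 1 expected height per list and not against untreated reads at the same place. Each deposited list gives a score, a fold enrichment (linear ratio) and −log10 p- and q-values per peak. Replicates were not pooled, and spike-in scaling does not enter the lists.

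Peaks were assigned by summit to windows of 1 kb around GENCODE 44 genes on GRCh37, the build of hg19, whose chromosome 6 no peak overran. Whole summit heights were recovered from the fold values to within 0.000147 for heights up to 50. Density ratios were formed per library and compared over 4 libraries by two-sided exact sign-flip or permutation tests. Intervals within a library are exact binomial ones at 95%. DSB sites followed the study's definition, with bedtools 2.31.1, and blacklisted regions were not removed. Scripts used Python 3.11 and SciPy 1.17.1 and were checked on simulated data.

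The members and gene lists were chosen with earlier results of these data known. The genes named are the 10 histone genes with the best worst rank over libraries by highest −log10 q-value, the 3 with the worst rank (ties broken by the fewest lists with a summit, all of an equal number named), the testis-specific genes, and the 5 other genes of the interval with the best worst rank. H2AC7 was added after its values were seen. Alternatives were stricter thresholds, lists of equal length, other windows, single strands, bins of like GC and leaving out each library.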

Additional observations from a re-analysis of the deposited data

How the results depend on the processing

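Values below are mean log2 ratios unless counts are named. The histone windows against the rest of the interval (0.85 as reported) gave 1.18 and 2.86 with −log10 q of at least 3 and 10, 1.22 with lists of equal length, 1.71 with summit heights of at least 10, 1.43 for the share of bases under peaks and 0.57 in bins of like GC. Against chromosome 6 outside the interval (0.92) the same settings but the last gave 1.32, 3.34, 1.35, 1.94 and 1.54, and gene starts against other gene starts (1.27) gave 1.71, 3.33, 1.69, 2.24 and 1.96. Canonical transcripts, chosen after seeing the data, gave 1.23, 1.31 and, for bodies against upstream (−0.06), 0.95. The rest of the interval against the chromosome (0.06) moved to 0.48 with −log10 q of at least 10, 0.23 with heights of at least 10 and 0.23 in bins of like GC. The time difference (0.16) moved to 0.46 with −log10 q of at least 10 and to −0.10 with lists of equal length.

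Without 1 library at a time, the ranges were 0.75 to 0.91 and 0.79 to 0.98 for the histone windows, 0.03 to 0.09 for the rest, 1.11 to 1.41 for gene starts, 0.18 to 0.35 for the strands, −0.089 to 0.40 for the time difference, −0.19 to 0.04 for bodies against upstream and 34 to 35 genes with a summit in each library. That count of 34 fell to 17 with −log10 q of at least 10 and to 21 within 500 bp of the 5′ end, and the 17 genes with a replicated DSB site at 20 min fell to 5 and 10. The strand order at 20 min in replicate 1 was 3-fold (exact binomial p = 0.0414) with −log10 q of at least 3. The cause of these shifts was not tested.

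Same-numbered libraries share only a number in the labels. As a replicate block, the histone windows against the rest gave 0.71 for number 1 and 1.00 for number 2, and the time difference stayed at 0.16, being −0.04 within number 1 and 0.36 within number 2. Of 149 values recomputed for the comparisons, 118 stayed within the spread of the libraries or within 1.5 times the count, and none reversed a difference larger than its spread. Part of this tally was fixed in advance, so it is no measure of robustness. Leaving out 1 of 4 libraries cannot shift a mean ratio by its spread. Counts of genes with a strong peak cannot change under −log10 q thresholds of 3 or 10. The share of bases was not run for gene counts, and the strand order at −log10 q of at least 10 gave no value. Fewer peaks pass strict thresholds in the replicate 2 libraries. Their expected summit heights were 0.727 to 0.864, against 1.20 to 1.44 in replicate 1. Of the replicate 2 libraries, however, that at 20 min had the higher expected heights and the shorter lists. A part of depth was not tested.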

Other observations

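Histone genes elsewhere in the genome were counted in the same way. Of 14 histone genes on chromosome 1, 8 had a summit within 1 kb of the 5′ end in each library, against 20% of all protein-coding genes. A replicated DSB site was present at 5 of them at 10 min (H2AC20, H2AC21, H2AC25, H2BC21 and H2BC26) and at 8 at 20 min, against 1.31% and 1.81% of all protein-coding genes. Of 10 genes of histone variants, which are expressed outside S phase as well, 6 had a summit in each library, against the same 20%, and 4 and 3 had a replicated DSB site at 10 and 20 min. H3-3B, which encodes the variant H3.3, and H1-10 had one at both times. Of 10 genes for factors of histone mRNA synthesis and processing, 4 had a summit in each library, also against 20%, and none had a replicated DSB site. NPAT, the coactivator of histone gene transcription, had a strong peak in both replicates at 20 min, a call made at 2.77% of all genes.

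The other genes of the interval had weaker peaks. ENSG00000282988 ranked first among them, but it overlaps H2AC7 and shares its forward peak. BTN1A1, a butyrophilin gene, had best −log10 q-values of 15.3 and 6.45 at 10 min and 15.3 and 6.73 at 20 min. BTN2A1, another butyrophilin gene, had 15.1, 14.4, 21.3 and 5.81. The zinc finger genes ZNF322 and ZNF391 had 18.6, 5.50, 20.0 and 8.71, and 17.5, 5.46, 14.2 and 5.81. Windows of the 6 butyrophilin genes held 0.466 ± 0.161 summits per kb (SD, n = 4 libraries), against 0.373 ± 0.120 in the rest of the interval as a whole.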
